A study of Homo sapiens with 16 samples.

Results

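AP-1 is the transcription factor formed when a FOS family protein pairs with a JUN family protein, or when JUN proteins pair with each other. The genes described here are the 7 AP-1 subunits FOS, FOSB, FOSL1, FOSL2, JUN, JUNB and JUND together with EGR1, IER2 and IER3. They were chosen by gene symbol, with earlier results of these data known. All 10 were found once, as protein-coding genes, among the 58735 genes of each expression table. Many of these genes are immediate early genes, which are transcribed within minutes of a growth factor signal without new protein synthesis. In lung cancer cells driven by mutant EGFR, the receptor feeds the RAS, RAF, MEK and ERK cascade, and ERK phosphorylates the ternary complex factors that sit with SRF on CArG boxes in promoters such as those of FOS and EGR1. The JUN N-terminal kinases phosphorylate JUN, and AP-1 dimers then bind TRE and CRE elements in promoters and enhancers, the JUN promoter among them.

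The series was set up to find gene changes that follow resistance to EGFR kinase inhibitors and agents against the genes involved. RNA-seq was done on NCI-H1975, a human lung adenocarcinoma line whose EGFR carries an activating and an inhibitor-resistance substitution, and on HCC827, a human lung adenocarcinoma line with an activating EGFR deletion. NCI-H1975 cells, labelled wild type for genotype as all libraries analysed here are, had received chloroform parts of Flos Magnoliae (the chloroform fraction of dried magnolia flower buds), magnolin (a lignan of those buds), or were controls, with 4 libraries in each group. HCC827 parental cells gave 2 libraries, and the afatinib-resistant HCC827 cells were not analysed here. The labels give no dose, no time and no vehicle for any group, and nothing in them ties a replicate to its own culture, so p-values measure the spread between libraries, which may be technical. Expression is given as FPKM, fragments per kilobase of gene scaled to the size of the library, in 3 deposited tables normalized separately: NCI-H1975 replicates 1 and 2, NCI-H1975 replicates 3 and 4, and HCC827. Comparisons were made within a table unless stated, and levels set side by side across tables were scaled separately. In bulk RNA, fewer cells with a transcript and less transcript per cell cannot be told apart.

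The promoters of FOS, EGR1, JUN and JUND are shown because the results below turn on these genes. Each runs from 250 bases before to 50 bases after the RefSeq transcription start in GRCh38.p14, is written along the gene's strand from 5′ to 3′, and has matches to the searched motifs in capitals. The windows lie at chr14:75278578-75278877 (plus strand) for FOS, chr5:138465229-138465528 (plus strand) for EGR1, chr1:58783998-58784297 (minus strand) for JUN and chr19:18281573-18281872 (minus strand) for JUND.
FOS: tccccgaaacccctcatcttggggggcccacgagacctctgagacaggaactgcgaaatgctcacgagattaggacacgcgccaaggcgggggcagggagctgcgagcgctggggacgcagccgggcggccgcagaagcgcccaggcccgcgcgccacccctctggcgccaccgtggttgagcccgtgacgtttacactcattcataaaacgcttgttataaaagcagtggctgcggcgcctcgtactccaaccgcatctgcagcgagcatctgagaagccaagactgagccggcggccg
EGR1: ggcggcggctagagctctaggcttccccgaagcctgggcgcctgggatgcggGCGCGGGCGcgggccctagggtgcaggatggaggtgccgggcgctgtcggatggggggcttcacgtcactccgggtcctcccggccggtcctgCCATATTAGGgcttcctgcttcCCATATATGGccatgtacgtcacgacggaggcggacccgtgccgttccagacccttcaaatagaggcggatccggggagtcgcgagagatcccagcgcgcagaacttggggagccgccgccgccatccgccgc
JUN: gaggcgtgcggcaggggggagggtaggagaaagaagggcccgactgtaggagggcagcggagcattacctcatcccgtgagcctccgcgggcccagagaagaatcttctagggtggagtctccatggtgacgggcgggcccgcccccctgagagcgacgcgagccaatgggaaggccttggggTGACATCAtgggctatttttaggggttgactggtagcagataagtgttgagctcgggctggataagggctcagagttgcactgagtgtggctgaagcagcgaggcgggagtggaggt
JUND: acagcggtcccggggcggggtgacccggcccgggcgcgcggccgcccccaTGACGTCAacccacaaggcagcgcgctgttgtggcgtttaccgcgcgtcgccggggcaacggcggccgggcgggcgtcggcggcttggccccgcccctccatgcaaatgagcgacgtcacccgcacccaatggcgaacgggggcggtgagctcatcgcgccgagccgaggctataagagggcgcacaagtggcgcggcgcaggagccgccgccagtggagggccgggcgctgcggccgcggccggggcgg

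A promoter was listed for 8 of the 10 genes; FOSL1 and IER3 are named only. The motifs searched on both strands were the CArG box bound by SRF, the TRE TGAGTCA and the CRE TGACGTCA of AP-1 and ATF dimers, the JUN promoter element TGACATCA, and the EGR1 site GCGNGGGCG. EGR1 held 2 CArG boxes, whose first bases lay 105 and 83 bases before the start, and a CArG box was found in 1.29% of all 35116 promoters of the same length. EGR1 also held a match to its own protein's site, GCGNGGGCG, 198 bases before the start, a motif present in 9.43% of promoters. JUN held TGACATCA 67 bases before the start (2.61% of promoters), and JUND held TGACGTCA 200 bases before the start (1.85%). FOSL2 held the TRE 4 bases after the start, a motif in 4.95% of promoters. A match is a match of letters in this window, and it was not read as a bound site. No motif searched overlapped another in these windows, and the FOS window held no exact match. Bases more than 250 before the start were not searched, so a CArG box of FOS farther upstream would not be seen.

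The sequencing depth was enough for 9 of the 10 genes to be tested, although FOS in replicates 3 and 4 rested on only 43 to 87 reads per library. Read numbers rebuilt from FPKM and gene length came to 18.4 to 21.3 M per library for replicates 1 and 2, 15.96 to 17.04 M for replicates 3 and 4, and 15.9 to 16.4 M for HCC827 (M, 1000000 reads). All 6 epithelial markers were expressed in every library, while CD3E of T cells was at 0 everywhere, and PTPRC of blood cells and DCN of fibroblasts reached at most 0.013 and 0.009 FPKM. The lung markers separated the lines: NKX2-1 lay at 52.0 and 55.9 FPKM in HCC827 but between 1.61 and 9.06 in NCI-H1975, where NAPSA reached at most 0.446 FPKM and SFTPB at most 0.261 FPKM.

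The NCI-H1975 libraries numbered 1 and 2 differed strongly from each other within every group. EPCAM, an epithelial adhesion molecule, was at 178 FPKM in fraction replicate 1, 172 in magnolin replicate 1 and 193 in control replicate 1, against 11.6, 9.62 and 14.4 FPKM in fraction, magnolin and control replicate 2. The AP-1 and immediate early genes differed in both directions. On the log2(FPKM + 1) scale, replicate 1 minus replicate 2 averaged 1.49 for FOSL1 (1.32 to 1.66 over the 3 groups), 0.56 for FOS and 0.55 for JUN. It averaged −1.33 for JUND, −1.29 for JUNB, −0.82 for IER3, −0.77 for EGR1 and −0.65 for IER2. For FOSL2 it averaged 0.19 (−0.02 to 0.33 over the 3 groups). Of the genes tested in these libraries, 98.07% lay below FOSL1, 84.97% below FOS, 84.44% below JUN and 64.58% below FOSL2. Below IER2 lay 10.45%, below EGR1 7.88%, below IER3 6.97%, below JUNB 2.06% and below JUND 1.9%. Replicates 3 and 4 were close, with mean differences between −0.20 and −0.02 for the 9 genes, although fraction replicate 4 stood apart from fraction replicate 3 (a chi-square per gene of 13.1, against 3.99 for magnolin and 3.92 for control). These are descriptions, and what separates replicates 1 and 2 was not tested.

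**Figure D1:**
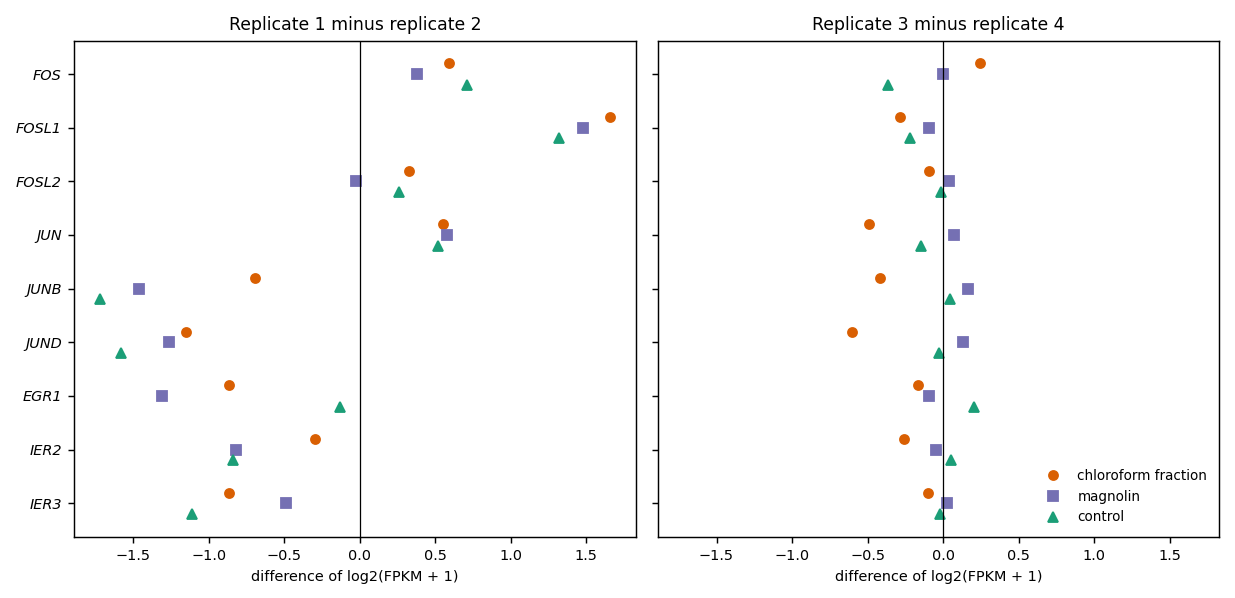
Difference in log2(FPKM + 1) between replicate numbers for each gene, with a point for each treatment group, for replicate 1 minus 2 and replicate 3 minus 4. FOSL1 lies at 1.32 to 1.66 and JUND at −1.58 to −1.15 for replicate 1 minus 2, while the points for replicate 3 minus 4 lie between −0.60 and 0.25.

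In 5 equal bins of genes by transcript GC content, the median of replicate 1 minus 2 lay between −0.04 and 0.07. FOSL1, JUNB, JUND, IER2 and IER3 belong to the bin of highest GC (57.8% to 86.36%), with FOSL1 at 60.04% and JUND at 69.7% GC. FOS, FOSL2, JUN and EGR1 belong to the bin below it. The part of GC content in the difference was not tested. The plot of replicate differences shows FOSL1, FOS and JUN above 0 in all 3 treatment groups. JUND, JUNB, IER3, EGR1 and IER2 lie below 0 in all 3, and FOSL2 lies on both sides. The share of all genes with the same direction in all 3 groups was not counted. For replicates 1 and 2, the comparisons below are therefore also given with the replicate number as a block.

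Among the genes, IER3, JUND, JUNB and FOSL1 were abundant and FOS and FOSB were scarce. In control replicates 3 and 4, IER3 (a stress-inducible survival regulator) averaged 140 ± 1.22 FPKM (SD, n = 2). It was followed by JUND at 84.0 ± 1.20, JUNB at 79.7 ± 1.69, FOSL1 at 41.2 ± 4.47, FOSL2 at 33.8 ± 0.283, JUN at 22.1 ± 1.62, IER2 at 21.6 ± 0.574, EGR1 at 12.3 ± 1.31, FOS at 1.31 ± 0.414 and FOSB at 0.0263 ± 0.0068 FPKM. Of the neighbours in this order, only JUN and IER2 overlapped in their libraries. FOSB, with 5 to 65 rebuilt reads per group and table, did not reach 1 FPKM in any library and was not tested.

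**Figure D2:**
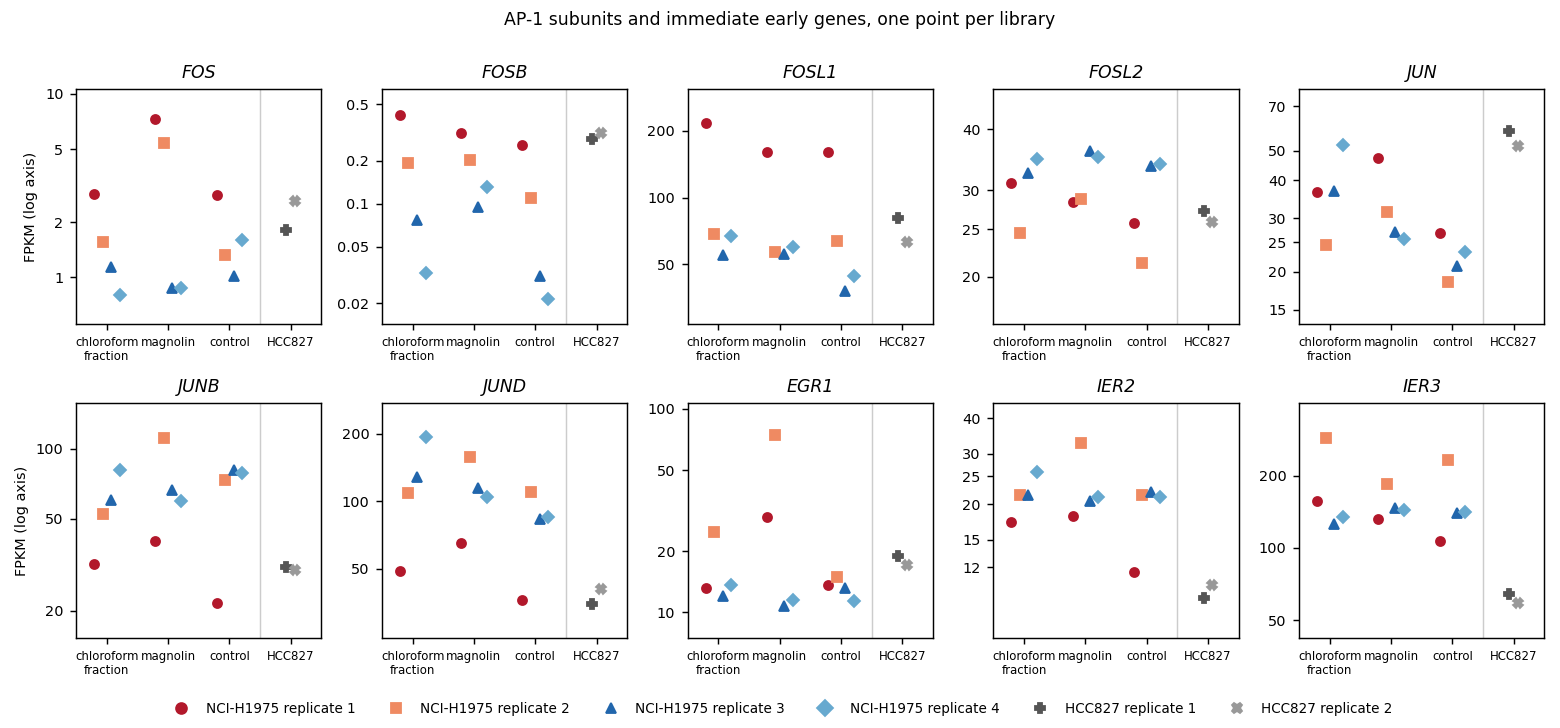
FPKM of each of the 10 genes in every library, on log axes, by group and replicate number. Replicates 3 and 4 of the chloroform fraction lie above the control libraries for JUN and JUND, and magnolin replicates 1 and 2 lie above all other NCI-H1975 libraries for FOS and EGR1.

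The plot of levels shows both patterns that the comparisons below turn on. FOS and EGR1 stand out in magnolin replicates 1 and 2, and JUN, JUND and FOSL1 are higher than control in the chloroform fraction of replicates 3 and 4. It also shows FOSL1 of replicate 1 at 160 to 218 FPKM in all 3 groups, well above every other NCI-H1975 library.

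With the chloroform fraction, JUN, JUND and FOSL1 rose in replicates 3 and 4 while the other 6 tested genes did not pass the test. JUN, the classical partner of FOS proteins (chr1:58780788-58784327, minus strand, hg38), was at 37.0 and 52.4 FPKM in the fraction libraries, against 20.9 and 23.2 FPKM in control. JUND, a constitutively expressed JUN protein (chr19:18279760-18281622, minus strand), was at 128 and 194 FPKM with the fraction, against 83.1 and 84.8 FPKM in control. FOSL1, the FRA-1 subunit that lacks the transactivation domain of FOS (chr11:65892049-65900573, minus strand), was at 55.0 and 67.2 FPKM with the fraction, against 38.1 and 44.4 FPKM in control. For all 3 genes both fraction libraries lay above both control libraries. Here and below, the share of all genes whose groups did not overlap was not counted. Nor was the share of genes higher in every replicate number, so such orders are descriptions only.

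In limma on log2(FPKM + 1), with Benjamini-Hochberg adjustment over 14673 genes, 19.9% of all genes were called at an adjusted p under 0.05, 8.33% as higher and 11.6% as lower, and 3 of 9 members were called, all higher. JUN changed by 0.97 (SE 0.16, adjusted p 0.0120), 1.95-fold. JUND changed by 0.90 (SE 0.19, adjusted p 0.0232), 1.87-fold. FOSL1 changed by 0.55 (SE 0.12, adjusted p 0.0283), 1.47-fold. All 3 calls were kept with the replicate block, where 14.7% of genes were called. They were lost without control replicate 3 (adjusted p 0.0775 for JUN, 0.112 for JUND and 0.145 for FOSL1) or control replicate 4 (0.0648, 0.116 and 0.078), and FOSL1 also without fraction replicate 4 or either magnolin library (0.0563 to 0.0568). Without fraction replicate 4 the JUND change was 0.60. With no filter on low values all 3 were lost (adjusted p 0.0555 for JUN, 0.0933 for JUND and 0.093 for FOSL1).

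The remaining JUN and FOS family members did not pass. JUNB, a JUN protein that can oppose JUN, was at 60.3 and 80.8 FPKM with the fraction, against 80.9 and 78.5 FPKM in control, a change of −0.19 (SE 0.14, adjusted p 0.397). Without fraction replicate 4 it was −0.40 and was called (adjusted p 0.0337). FOSL2, the FRA-2 subunit, was at 32.5 and 34.8 FPKM with the fraction, against 33.6 and 34.0 FPKM in control (−0.01, 95% interval −0.18 to 0.16, adjusted p 0.961). FOS was at 1.14 and 0.804 FPKM with the fraction, against 1.014 and 1.60 FPKM in control, on 43 to 87 rebuilt reads per library (−0.22, 95% interval −0.74 to 0.30, adjusted p 0.506). FOS, JUNB and FOSL2 overlapped between groups, and the FOS interval takes in changes of either sign.

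EGR1, IER2 and IER3 lay close to control. EGR1, a zinc finger factor, was at 12.1 and 13.7 FPKM with the fraction, against 13.2 and 11.3 FPKM in control (0.06, 95% interval −0.19 to 0.32, adjusted p 0.705). IER2, a nuclear regulator, was at 21.5 and 25.9 FPKM with the fraction, against 22.04 and 21.2 FPKM in control (0.12, adjusted p 0.446). IER3 was at 126 and 135 FPKM with the fraction, against 139 and 141 FPKM in control (−0.10, adjusted p 0.311). Of these 3 genes, only IER3 had groups that did not overlap.

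Other measures moved with the groups in replicates 3 and 4. The summed level of the 6 epithelial markers was 410 and 449 FPKM with the fraction and 440 and 445 FPKM with magnolin, against 613 and 619 FPKM in control. Mitochondrial transcripts took 7.04% and 8.17% of reads with the fraction, against 5.83% and 5.84% in control. The 3 endothelial markers summed to 0.832 and 0.943 FPKM with the fraction, against 4.29 and 6.24 FPKM in control, with VWF at 0.059 FPKM or less. The 3 fibroblast markers summed to 1.80 and 1.95 FPKM with the fraction, against 3.14 and 3.16 FPKM in control, with DCN at 0.005 FPKM or less. Median changes over the 5 GC bins ran between −0.06 and 0.08. The part of these measures in the JUN, JUND and FOSL1 result was not tested.

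In replicates 1 and 2 the fraction gave no call. JUN was at 36.4 and 24.6 FPKM with the fraction, against 26.9 and 18.5 FPKM in control, higher in each replicate number, with a change of 0.41 (SE 0.35, adjusted p 0.9998; with the replicate block SE 0.20, adjusted p 0.856). JUND was at 48.6 and 109 FPKM with the fraction, against 36.1 and 110 FPKM in control. FOSL1 was at 218 and 68.3 FPKM with the fraction, against 161 and 63.9 FPKM in control. For all 3 genes the groups overlapped, since replicates 1 and 2 lay far apart. limma called 0 of 13103 genes (107 at an unadjusted p under 0.05; limma voom on rebuilt reads also 0), and 24 genes with the block (0.183%), none of them a member.

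Over all 4 replicate numbers, with the number as a block, 0.156% of 15428 genes were called for the fraction against control and no member was. JUN changed by 0.69 (SE 0.20, adjusted p 0.164) and was higher in 4 of 4 replicate numbers. FOSL1 changed by 0.41 (SE 0.13, adjusted p 0.184), also higher in 4 of 4, and JUND by 0.55 (SE 0.21, adjusted p 0.226), higher in 3 of 4. The difference in the fraction's effect between the tables, replicates 3 and 4 minus replicates 1 and 2, was 0.56 for JUN and 0.70 for JUND (adjusted p 0.9998 each), so the data do not show that the tables differ in it.

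**Figure D3:**
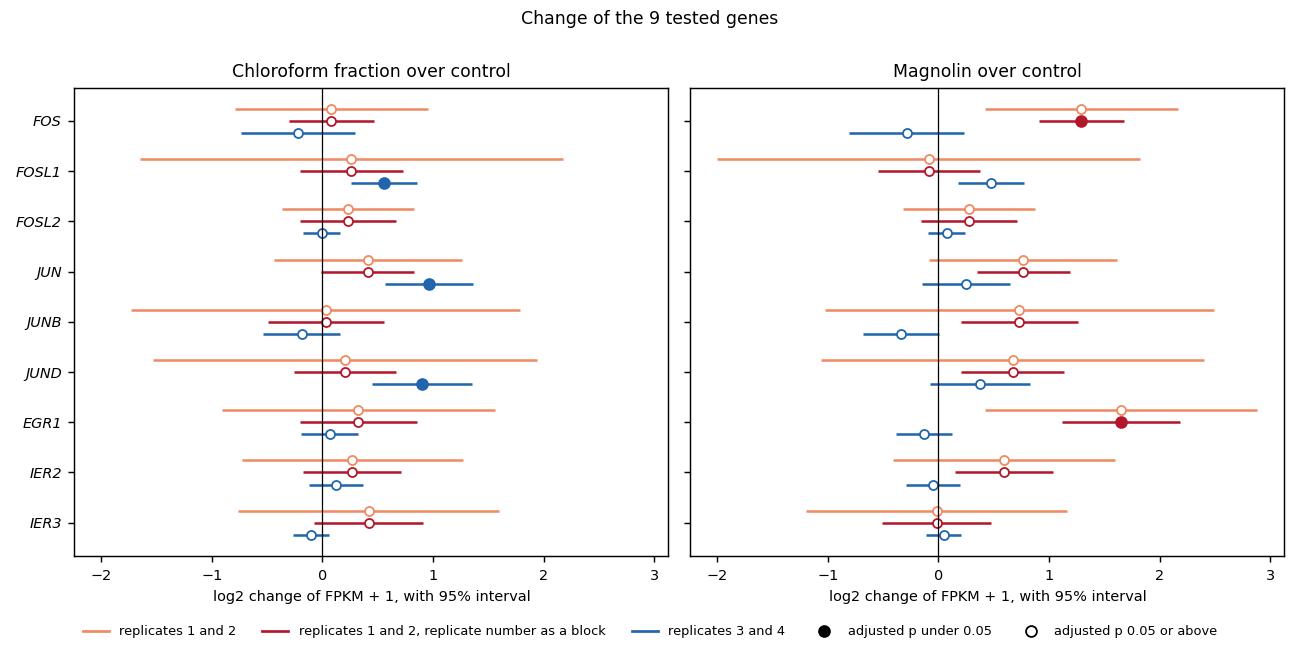
Change in log2(FPKM + 1) of the 9 tested genes with 95% intervals, for the fraction over control and magnolin over control, in replicates 1 and 2 with and without the replicate block and in replicates 3 and 4. Filled points passed an adjusted p of 0.05: JUN, JUND and FOSL1 with the fraction in replicates 3 and 4, and FOS and EGR1 with magnolin in replicates 1 and 2 with the block.

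The plot of changes sets the comparisons side by side. The fraction and magnolin share their control libraries, so their changes against control are not independent of each other. FOS and EGR1 have their largest changes with magnolin in replicates 1 and 2, and JUN and JUND with the fraction in replicates 3 and 4.

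With magnolin, FOS and EGR1 were the genes that moved most in replicates 1 and 2. FOS (chr14:75278774-75282230, plus strand, hg38), the short-lived founding subunit of AP-1, was at 7.32 and 5.39 FPKM with magnolin, against 2.80 and 1.33 FPKM in control, on 446 and 327 rebuilt reads against 178 and 92. EGR1 (chr5:138465490-138469315, plus strand), whose promoter above holds the CArG boxes, was at 29.5 and 74.7 FPKM with magnolin, against 13.6 and 15.001 FPKM in control. Both magnolin libraries lay above both control libraries for each gene. The ratio of magnolin to control within a replicate number was 2.61 and 4.06 for FOS and 2.16 and 4.98 for EGR1.

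Whether these passed the test depended on the replicate block. Without it, limma called 0 of 13103 genes (255 at an unadjusted p under 0.05; limma voom also 0), with FOS at 1.29 (SE 0.36, unadjusted p 0.0112, adjusted p 1) and EGR1 at 1.65 (SE 0.50, unadjusted p 0.0170, adjusted p 1). With the block, 0.992% of genes were called, 0.481% as higher, and 2 of 9 members rose: FOS (SE 0.18, adjusted p 0.00553) and EGR1 (SE 0.25, adjusted p 0.00798). On the log2(FPKM + 1) scale these changes are 2.45-fold and 3.14-fold. With the block, both calls were lost without control replicate 2 (adjusted p 0.055 for FOS and 0.0818 for EGR1), where the EGR1 change was 1.17, and with no filter on low values (adjusted p 0.689 for both).

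The JUN family and IER2 lay higher with magnolin in the same libraries but did not pass with the block. JUN was at 47.5 and 31.5 FPKM with magnolin, against 26.9 and 18.5 FPKM in control (0.77, adjusted p 0.0901 with the block). JUNB was at 39.96 and 112 FPKM with magnolin, against 21.5 and 73.3 FPKM in control (0.73, adjusted p 0.177 with the block). JUND was at 64.9 and 157 FPKM with magnolin, against 36.1 and 110 FPKM in control (0.67, adjusted p 0.162 with the block). IER2 was at 18.2 and 32.7 FPKM with magnolin, against 11.6 and 21.5 FPKM in control (0.59, adjusted p 0.194 with the block). Each of these 4 genes was higher with magnolin in both replicate numbers. The other 3 tested genes were spread on both sides of 0: FOSL2 0.28, IER3 −0.02 and FOSL1 −0.09, where FOSL1 was at 160 and 56.8 FPKM with magnolin, against 161 and 63.9 FPKM in control. Median changes over the 5 GC bins ran between −0.17 and 0.17 in this comparison. The epithelial markers summed to 1111 and 393 FPKM in magnolin replicates 1 and 2, against 1160 and 581 FPKM in control. Mitochondrial transcripts took 8.38% and 8.80% of reads with magnolin, against 9.42% and 8.06% in control. The part of these measures in the comparison was not tested.

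In replicates 3 and 4, magnolin gave no call among the members, with 0.627% of 14673 genes called. FOS was at 0.873 and 0.877 FPKM with magnolin, against 1.014 and 1.60 FPKM in control (−0.29, SE 0.21, adjusted p 0.607). EGR1 was at 10.7 and 11.5 FPKM with magnolin, against 13.2 and 11.3 FPKM in control (−0.13, 95% interval −0.39 to 0.13, adjusted p 0.640). For FOS both magnolin libraries lay below both control libraries, and for EGR1 the groups overlapped. FOSL1 was at 55.8 and 59.7 FPKM with magnolin, against 38.1 and 44.4 FPKM in control, with groups that did not overlap (0.48, SE 0.12, adjusted p 0.174). limma voom on rebuilt reads called FOSL1 higher (0.45, adjusted p 0.0268), where it called 3.93% of all genes and 1.1% as higher. JUND was at 114 and 104 FPKM with magnolin, against 83.1 and 84.8 FPKM in control (0.38, adjusted p 0.441). JUN was at 27.1 and 25.7 FPKM with magnolin, against 20.9 and 23.2 FPKM in control (0.25, adjusted p 0.560). JUNB was at 66.6 and 59.3 FPKM with magnolin, against 80.9 and 78.5 FPKM in control (−0.34, adjusted p 0.365). For JUND, JUN and JUNB the magnolin libraries did not overlap with control, JUND and JUN lying above and JUNB below. FOSL2 and IER3 also lay above control without overlap, and IER2 below it. The share of all genes with such groups was not counted, so separation alone is not read as a change. Endothelial markers summed to 1.47 and 1.69 FPKM with magnolin, against 4.29 and 6.24 FPKM in control, and mitochondrial transcripts took 6.38% and 6.398% of reads with magnolin. Their part, and that of the epithelial sums given above, was not tested.

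The magnolin effect on FOS and EGR1 was then compared between the tables. Replicates 3 and 4 minus replicates 1 and 2 gave −1.58 for FOS (SE 0.41, unadjusted p 0.00428) and −1.78 for EGR1 (SE 0.57, unadjusted p 0.0123), with an adjusted p of 1 for each and 0 of 15428 genes called (647 at an unadjusted p under 0.05; limma voom also 0). With the replicate block the adjusted p was 0.271 for FOS and 0.336 for EGR1. The difference between the tables did not pass. Over all 4 replicate numbers, magnolin against control gave 0 called genes (1419 at an unadjusted p under 0.05; limma voom 29), with JUN at 0.51 (adjusted p 0.468), JUND at 0.52 (adjusted p 0.469), FOS at 0.50 (adjusted p 0.624; 0.22 to 0.75 with a library left out) and EGR1 at 0.76 (adjusted p 0.547; 0.35 to 1.06). FOS was lowest without magnolin replicate 2, and so was EGR1. JUN was higher with magnolin in 4 of 4 replicate numbers and so was JUND.

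Set directly against magnolin, the fraction gave higher JUN in replicates 3 and 4 and lower FOS and EGR1 in replicates 1 and 2. The other replicates did not show the same directions, as given below. JUN was at 37.0 and 52.4 FPKM with the fraction, against 27.1 and 25.7 FPKM with magnolin (0.72, SE 0.16, adjusted p 0.0375), where 14.9% of genes were called and 5.55% as higher, and it was the 1 member of 9 called. With the replicate block it was kept (adjusted p 0.0462, 8.93% of genes called). The call was lost without either magnolin library (adjusted p 0.128 and 0.173) or either control library (0.0745 and 0.0755), and without fraction replicate 4 the change was 0.47. It was also lost with no filter on low values (0.124). JUND was at 128 and 194 FPKM with the fraction, against 114 and 104 FPKM with magnolin (0.52, SE 0.19, adjusted p 0.112), and limma voom called it (adjusted p 0.00587, 22.6% of genes called). The JUND change was 0.22 without fraction replicate 4 and 0.82 without fraction replicate 3. Other measures moved with this comparison: endothelial markers summed to 0.832 and 0.943 FPKM with the fraction, against 1.47 and 1.69 FPKM with magnolin, and fibroblast markers to 1.80 and 1.95 FPKM, against 2.55 and 2.68 FPKM with magnolin. Mitochondrial transcripts took 7.04% and 8.17% of reads with the fraction, against 6.38% and 6.398% with magnolin, and median changes over the 5 GC bins ran from −0.15 to 0.16. Their part in the JUN result was not tested. FOSL1 did not differ detectably between the agents in replicates 3 and 4 (0.07, 95% interval −0.22 to 0.37, adjusted p 0.716).

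In replicates 1 and 2, FOS was at 2.86 and 1.56 FPKM with the fraction, against 7.32 and 5.39 FPKM with magnolin, and EGR1 was at 13.2 and 24.8 FPKM with the fraction, against 29.5 and 74.7 FPKM with magnolin. With the replicate block, 0.183% of genes were called, 0.0687% as lower, and both genes were among them. FOS fell by 1.21 (SE 0.18, adjusted p 0.0130) and EGR1 fell by 1.33 (SE 0.25, adjusted p 0.0485). Without the block, limma called 0 genes (93 at an unadjusted p under 0.05; limma voom also 0). With the block, both calls were lost without fraction replicate 1 or 2, and that of EGR1 also without magnolin replicate 2. For both genes the fraction libraries lay below the magnolin libraries. JUN was lower with the fraction in each replicate number here, at 36.4 and 24.6 FPKM against 47.5 and 31.5 FPKM. So was JUND, at 48.6 and 109 FPKM against 64.9 and 157 FPKM. FOSL1 was higher with the fraction in each replicate number, at 218 and 68.3 FPKM against 160 and 56.8 FPKM. None of JUN, JUND and FOSL1 passed. In replicates 3 and 4, EGR1 was at 12.1 and 13.7 FPKM with the fraction, against 10.7 and 11.5 FPKM with magnolin. FOS was at 1.14 and 0.804 FPKM there, against 0.873 and 0.877 FPKM with magnolin, and neither was called.

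The make-up of each family followed from these levels. FOSL1 held 52.4% to 86.4% of the summed FPKM of the 4 FOS family genes in every library, and FOSL2 held most of the rest. FOS held 3.73% and 5.91% in magnolin replicates 1 and 2 and at most 2.85% elsewhere. In the JUN family, JUND held 56.8% and 59.3% in fraction replicates 3 and 4, 55.0% and 55.1% in magnolin and 44.9% and 45.5% in control. JUNB held 26.8% and 24.7% with the fraction, 32.0% and 31.3% with magnolin and 43.7% and 42.1% in control. The shares describe mRNA and not protein, and no test was run on them.

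**Figure D4:**
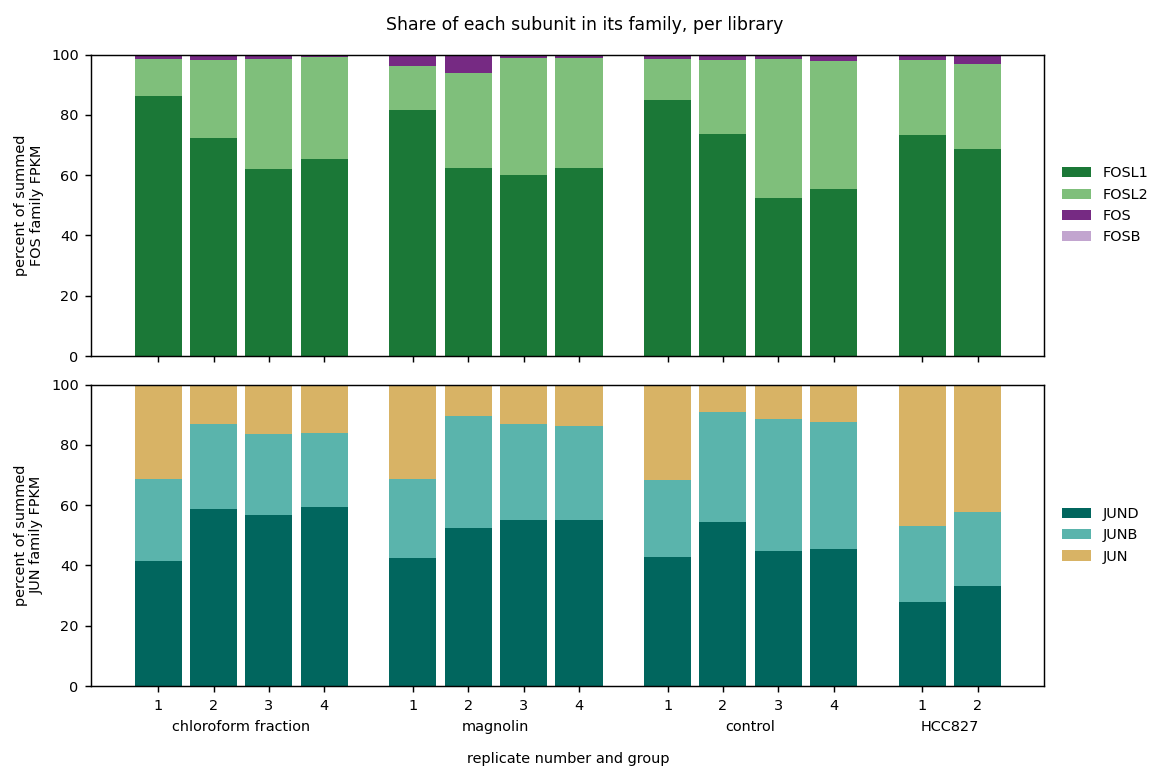
Percent of summed FPKM that each gene holds within the FOS family and within the JUN family, for every library. In replicates 3 and 4, JUND takes 56.8% and 59.3% of the JUN family with the fraction, against 44.9% and 45.5% in control, and FOSL1 takes over 50% of the FOS family throughout.

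The plot of shares shows that FOS and FOSB are thin bands in every library, and that JUND is the widest band of the JUN family in every NCI-H1975 library. JUN held 31.2% to 31.8% of the JUN family in the 3 libraries numbered 1, above JUNB, and 9.17% to 13.2% in those numbered 2, below JUNB.

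Genes around AP-1 were taken from 6 lists, described by counts and medians for the fraction against control in replicates 3 and 4. There the median change of all genes was −0.01, and 8.33% of all genes were called higher and 11.6% lower. The lists were chosen with earlier results of these data known, so a count above these shares is no independent evidence. Of 14 tested dimer partners and related bZIP factors, 6 rose and none fell (median 0.39). They included ATF3, a stress-induced partner of JUN (1.29, adjusted p 0.00470), MAFK, a small MAF protein (0.91, adjusted p 0.0144), ATF4, the effector of the integrated stress response (0.88, adjusted p 0.00163), and NFE2L1, a regulator of proteasome genes (0.76, adjusted p 0.00178). ATF3 was at 7.05 and 6.22 FPKM with the fraction, against 2.25 and 2.003 FPKM in control. The MAFK call was lost without control replicate 3 or 4 (adjusted p 0.0746 and 0.0934) and with no filter on low values (0.0625). Without control replicate 3 the list gave 3 calls.

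Of 19 tested AP-1 target genes, 9 rose and 2 fell (median 0.37). IL11, a cytokine of the IL-6 family, was at 24.96 and 29.006 FPKM with the fraction, against 4.68 and 4.21 FPKM in control (2.36, adjusted p 0.000465). VEGFA, an angiogenic growth factor, rose by 1.44 (adjusted p 0.000420) and KRT17, a keratin, by 0.996 (adjusted p 0.000833). CXCL8, a neutrophil chemokine, fell to 7.64 and 5.86 FPKM with the fraction, against 26.8 and 26.7 FPKM in control (−1.85, adjusted p 0.00186). Several of these genes also respond to other factors.

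Of 14 tested feedback genes, 6 rose and none fell (median 0.30): the largest changes were in SPRY4 (0.996, adjusted p 0.00499), DUSP6 (0.84, adjusted p 0.00428), SPRED1 (0.76, adjusted p 0.00233) and DUSP4 (0.69, adjusted p 0.00577). SPRY4 and SPRED1 restrain RAS to ERK signalling, and DUSP6 and DUSP4 remove phosphate from ERK. The DUSP4 call was lost without control replicate 4 (adjusted p 0.0568), where the list gave 3 calls. It gave 3 to 5 over all libraries left out in turn and 4 with the replicate block. Of 15 tested MAP kinase genes, 1 rose and 3 fell (median −0.09), with 1 call without control replicate 3 or 4 and with no filter on low values. MAPK3, which encodes ERK1, fell by 0.67 (adjusted p 0.00415), while RPS6KA3 (−0.53), MAP2K4 (−0.38) and MAP2K1 (0.42) were called but lost without control replicate 3 or 4 and with no filter on low values. The MAP2K1 and MAP2K4 calls were also lost without fraction replicate 4, and that of MAP2K4 without either magnolin library and with the replicate block (adjusted p 0.0664). No call was made among the 7 tested SRF and ternary complex factor genes (median −0.26).

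Other immediate early genes were split. Of 28 tested, 6 rose and 5 fell (median 0.11). RHOB, a small GTPase, was at 36.8 and 45.7 FPKM with the fraction, against 12.8 and 11.4 FPKM in control (1.69, adjusted p 0.00108). PPP1R15A, a phosphatase subunit induced by stress, rose by 1.32 (adjusted p 0.00133) and TIPARP, an ADP-ribosyltransferase, by 1.19 (adjusted p 0.00230), while CTGF, a matrix protein, fell by 1.34 (adjusted p 0.00148). These genes and the AP-1 subunits share the fraction and control libraries.

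**Figure D5:**
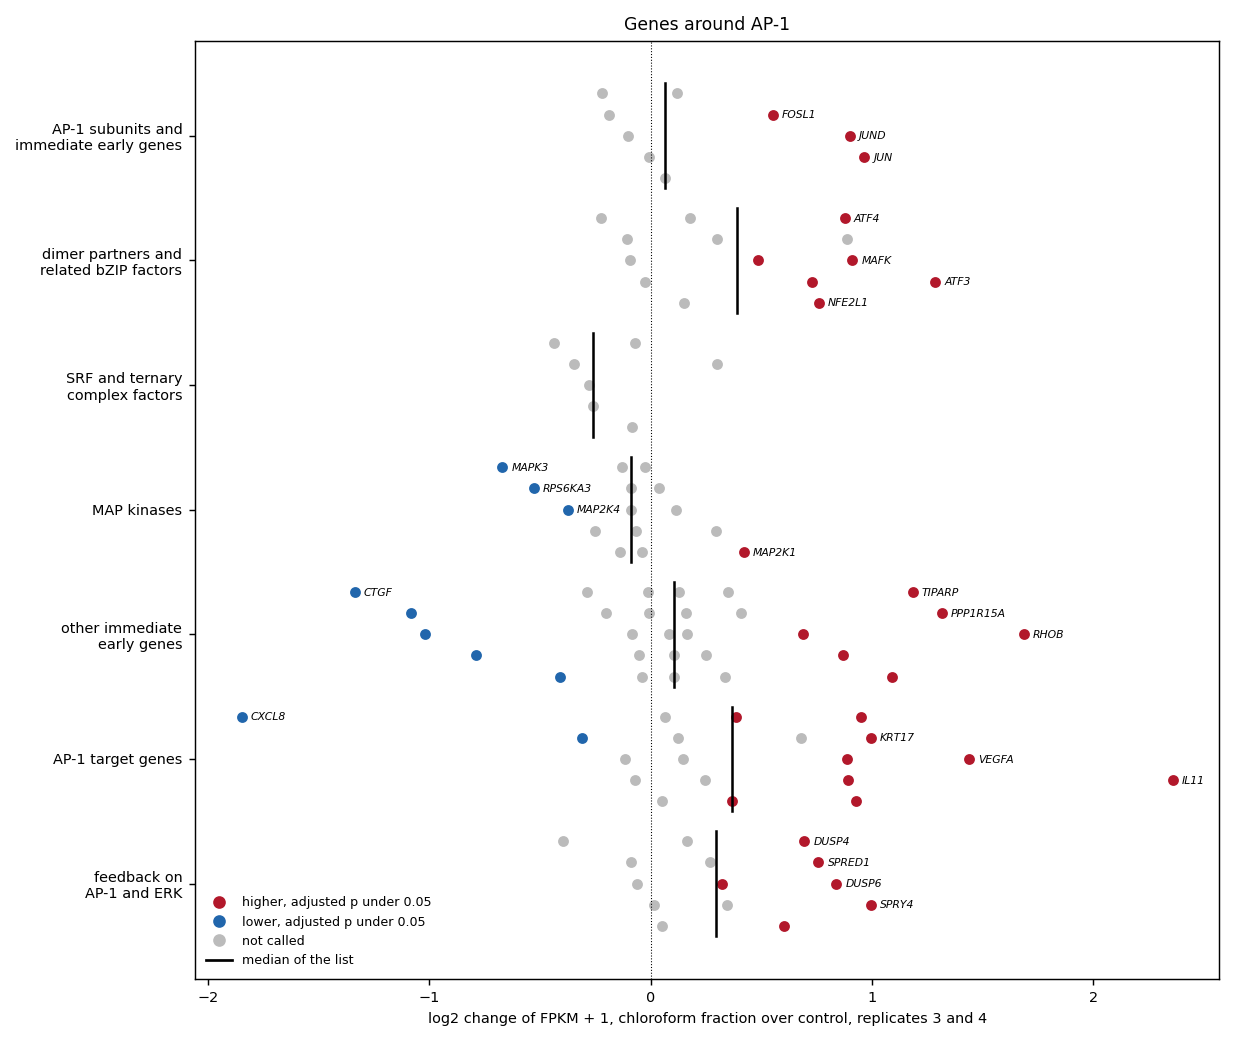
Change in log2(FPKM + 1) of each tested gene of 7 lists for the fraction against control in replicates 3 and 4, with a bar at the median of each list. IL11 lies farthest to the right at 2.36 and CXCL8 farthest to the left at −1.85, and the members' median is 0.06.

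The plot of list changes shows that called genes lie on the right for the dimer partners and feedback genes and on both sides for the targets and the other immediate early genes. For magnolin against control in replicates 3 and 4 the same lists gave 3 calls, where 0.627% of all genes were called: IL11 (1.36, adjusted p 0.0195), TIPARP (0.91, adjusted p 0.0372) and CTGF (−0.92, adjusted p 0.0355). All 3 were lost when any magnolin or control library was left out and with no filter on low values, and the replicate block ended the calls of TIPARP (adjusted p 0.081) and CTGF (adjusted p 0.0759). Limma voom on rebuilt reads gave more calls, 3 higher and 7 lower among the other immediate early genes, 5 higher and 1 lower among the targets and 1 each way among the MAP kinases, where it called 3.93% of all genes. Without either fraction library, 5 other immediate early genes were called. For the fraction against magnolin in the same replicates, 5 of 14 dimer partners, 7 of 19 targets, 5 of 14 feedback genes and 5 of 28 other immediate early genes rose, and 2, 3 and 2 fell among the targets, the other immediate early genes and the MAP kinases, where 5.55% of all genes were called higher and 9.36% lower. These counts moved with the libraries left out: calls in either direction ran from 0 to 7 for the dimer partners, 3 to 12 for the targets, 0 to 4 for the feedback genes, 0 to 11 for the other immediate early genes and 0 to 8 for the MAP kinases, and leaving out magnolin replicate 3 gave 0 in each of these lists but the targets. The replicate block left 3 feedback genes and no MAP kinase, and voom called 15 other immediate early genes, 12 of them higher. With no filter, 2 dimer partners, 1 feedback gene, 3 other immediate early genes and no MAP kinase were called. The largest changes there were VEGFA (1.007, adjusted p 0.00204) and IL11 (0.998, adjusted p 0.00918), and the IL11 call was lost without magnolin replicate 3 (adjusted p 0.0531).

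In replicates 1 and 2 the lists gave calls with the replicate block alone. IL11 was at 117 and 13.1 FPKM with the fraction, against 21.4 and 4.55 FPKM in control (1.87, adjusted p 0.00388), and at 71.2 and 8.77 FPKM with magnolin (1.25 against the same controls, adjusted p 0.0301). HMOX1, which encodes heme oxygenase 1, rose with magnolin (1.06, adjusted p 0.0255) and FHL2, an SRF cofactor, fell (−0.80, adjusted p 0.0434). MMP1, a collagenase, was higher with the fraction than with magnolin (1.07, adjusted p 0.0382). With the block, all of these calls were lost with no filter on low values. The IL11 call with the fraction was also lost without fraction replicate 1 or control replicate 1 (adjusted p 0.179 and 0.0599), and the call with magnolin without either fraction library or control replicate 1 (0.0651 to 0.276). The HMOX1 call was lost without any fraction or control library (0.0748 to 0.17), and those of FHL2 and MMP1 without any library but magnolin replicate 1. Over all 4 replicate numbers, IL11 (2.12, adjusted p 0.00474) and DUSP6 (0.72, adjusted p 0.0442) were the list genes called for the fraction against control. DUSP6 was at 5.58, 4.51, 8.87 and 7.501 FPKM with the fraction, against 3.15, 2.77, 4.25 and 3.995 FPKM in control, in the order of the replicate numbers. Limma voom called 5 targets as higher and 2 as lower, 2 other immediate early genes as higher and 3 as lower, and 2 feedback genes as higher, with 1.5% of all genes called. The IL11 and DUSP6 calls were lost with no filter on low values (0.104 and 0.223) and with a term for the table in place of the block (0.418 and 0.189). The IL11 call was also lost without fraction replicate 3 (adjusted p 0.051), and that of DUSP6 without fraction replicate 3 or 4, any control library but replicate 1, or any magnolin library but replicate 2.

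The genes whose pattern was most like that of FOS or FOSL1 were sought among 9617 protein-coding genes with a mean of at least 2 FPKM, over the 12 NCI-H1975 libraries with the mean of each replicate number removed. For FOS these were KANSL3 (Pearson r 0.965), ELMO2 (0.96), DPYSL2 (0.933), WBP1L (0.928) and ZNF737 (0.928). KANSL3 was at 6.82 and 7.84 FPKM in magnolin replicates 1 and 2, against 5.66 and 5.76 FPKM in control. For FOSL1 they were PRKCD (0.954), OXA1L (0.938), MPV17 (0.936), INAFM2 (0.911) and CA9 (0.909). PRKCD was at 21.8, 8.75, 9.24 and 9.68 FPKM with the fraction, against 17.4, 7.17, 6.88 and 6.92 FPKM in control, in the order of the replicate numbers. The points share libraries and depth, the genes were picked as the highest of many, and the values describe likeness only.

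In parental HCC827 the order of levels was different. FOSL1 came first at 81.0 and 63.2 FPKM, followed by IER3 at 64.1 and 59.2, JUN at 57.9 and 51.8, JUND at 34.6 and 40.5, JUNB at 30.8 and 30.1 and FOSL2 at 27.2 and 25.9 FPKM. FOSL1 and IER3 overlapped, and the other neighbours did not. EGR1 was at 18.9 and 17.1, IER2 at 9.36 and 10.4, FOS at 1.82 and 2.62 and FOSB at 0.284 and 0.312 FPKM. JUN held 46.9% and 42.3% of the JUN family, against 9.17% to 31.8% in the NCI-H1975 libraries. The HCC827 table was normalized apart from the others and the line differs in more than treatment, so no test was made.

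Some of these genes share their position with others. By the deposited gene positions, FOSB overlaps ERCC1, JUNB overlaps HOOK2 and FOSL2 overlaps FLJ31356 and AC104695.3. IER2 and IER3 overlap the antisense genes AC011446.2 and IER3-AS1. Whether counting used strand is not given in the sources used here, so reads of such partners cannot be told apart. FOS, FOSL1, JUN, JUND and EGR1 overlap no annotated gene.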

How the data were processed

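RNA-seq was done on total RNA checked on a Bioanalyzer, with NEB library kits, per the labels' protocols. The genome build was hg38, per the submitters' processing notes; no source used here names the aligner, the counter or the strandedness. The deposited tables hold FPKM for each gene, normalized by the authors separately in 3 tables. Of the per-sample columns, 2 matched no label and were not used.

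From the deposited FPKM values, limma 3.58.1 in R 4.3.3 was fitted within each table to log2(FPKM + 1) of genes with at least 1 FPKM in at least 2 libraries of the fit, all groups of the table sharing the spread, with Benjamini-Hochberg adjusted p under 0.05 as the threshold. Fold changes are on the log2(FPKM + 1) scale and understate the change of low genes. Rebuilt reads (FPKM times gene length, scaled) were whole within 0.05 for 100% of values up to 2000 reads. The fits before any alternative were tested on simulated data drawn with no difference between replicate numbers. The replicate block within a table was not part of that test. Alternatives were a pseudocount of 0.1, no filter, median-ratio rescaling, limma voom on rebuilt reads, the replicate number as a block, and leaving out each library.

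Over all 4 replicates, all 12 correlations of deviations from group means between libraries of the same number were over 0.1 (0.29 to 0.84), 10 of 12 best with their own number. The numbers were taken to pair libraries from this check alone. These deviations also hold the difference between the tables, which can make them correlate by itself. Within a table the correlations were 0.742 to 0.781 for replicates 1 and 2, where each value stands for both numbers. They were −0.028 to 0.03 for replicates 3 and 4, with 2 of 6 best with their own number. The check therefore does not show pairing for numbers 3 and 4. In the fits over all 4 numbers the block also holds the table.

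The members and lists were chosen with earlier results of these data known. The text names the 10 members, up to 4 called genes of each list by largest change (mean of at least 1 FPKM in the higher group), and the 5 genes most alike FOS and FOSL1 among those with a mean of at least 2 FPKM. Gene overlaps came from the gene positions deposited with the FPKM values, transcript GC (99.9% of genes) from GENCODE, and promoters from RefSeq GRCh38.p14. Afatinib-resistant HCC827 cells were not analysed here.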

Additional observations from a re-analysis of the deposited data

Results flagged for a closer look

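Of 30 sets of 4 NCI-H1975 libraries, 1 set for each gene and treatment, 5 held a library far from the other 3 by Dixon's test, which chance gives in about 1 in 20. The levels cross tables normalized separately, and the reason for the distance was not tested.

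FOSL1 in fraction replicate 1 was at 217.8 FPKM, above the other 3 fraction libraries. FOSL1 in magnolin replicate 1 was at 160.4 FPKM, above the other 3 magnolin libraries. EGR1 in fraction replicate 2 was at 24.85 FPKM, above the other fraction libraries. JUNB in control replicate 1 was at 21.55 FPKM and IER2 in the same library was at 11.59 FPKM, each below the other 3 control libraries. Of these 5 values, 4 are from libraries with replicate number 1.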

How the results depend on the processing

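Where a result changed with the processing, the cause was not tested. The 3 members called for the fraction against control in replicates 3 and 4 became 0 with no filter on low values and 0 to 3 with a library left out. For the fraction against magnolin in replicates 3 and 4, 1 member was called, against 0 with no filter, 2 with limma voom on rebuilt reads and 0 to 4 with a library left out (JUN, JUNB, JUND and IER2 without fraction replicate 3). In magnolin against control, replicates 3 and 4, voom called 1 member. The replicate block gave 2 members for magnolin against control in replicates 1 and 2, 5 with voom (JUN, JUNB and JUND as well as FOS and EGR1), 0 with no filter and 0 to 2 with a library left out, and 2 members for the fraction against magnolin in replicates 1 and 2, 2 with voom, 0 with no filter and 0 to 2 with a library left out. The block joined to voom, to no filter or to leaving out a library was chosen after seeing the data. The block changed no other call of a member. In replicates 3 and 4 it moved the list counts for the fraction against control to 4 feedback genes, 8 higher and 1 lower target and 4 lower other immediate early genes, and for the fraction against magnolin to 4 dimer partners and 2 lower other immediate early genes. In the difference between tables for the fraction it gave 1 other immediate early gene, DUSP1 (1.07, adjusted p 0.0456), named after its value was seen.

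Leaving out a library turned the sign of values that had not passed. In replicates 1 and 2 these were, for the fraction against control, FOS (−0.27 to 0.44, and −0.031 to 0.19 with the block), EGR1 (−0.11 to 0.76, and −0.15 to 0.80 with the block), FOSL1 (−0.57 to 1.09) and JUND (−0.59 to 0.99). For magnolin against control they were JUNB (−0.13 to 1.59), JUND (−0.12 to 1.46), FOSL1 (−0.83 to 0.65, and −0.21 to 0.038 with the block), IER3 (−0.57 to 0.54, and −0.27 to 0.23 with the block, 0.20 being without control replicate 2), IL11 (−0.19 to 2.69) and FHL2 (−2.22 to 0.61), and for the fraction against magnolin MMP1 (−0.55 to 2.70). In replicates 3 and 4, for the fraction against control, they were JUNB (−0.40 to 0.019), EGR1 (−0.036 to 0.17), IER2 (−0.0095 to 0.25) and FOSL2 (−0.053 to 0.041), and for the fraction against magnolin FOSL1 (−0.068 to 0.22). The difference between tables for JUND with the fraction ran from −0.094 to 1.49. FOSL2 with the fraction was also 0.026 with median-ratio rescaling and 0.0020 with voom, and IER3 with magnolin was 0.010 with voom and 0.012 with voom and the block.

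Over all genes in replicates 3 and 4, the 2918 genes called for the fraction against control became 1598 with no filter and 728 to 3174 with a library left out. The 92 for magnolin against control became 0 with no filter, 577 with voom, 43 with the block and 0 to 154 with a library left out. The 2188 for the fraction against magnolin became 752, 3311 and 1311 with the same settings and 226 to 3017. In replicates 1 and 2 the block gave 24 genes for the fraction against control, 130 for magnolin against control and 24 for the fraction against magnolin, 80, 621 and 123 with voom, 0 each with no filter, and 10 to 238, 25 to 596 and 3 to 230 with a library left out. Over both tables, the 24 for the fraction against control became 43 with a pseudocount of 0.1, 0 with no filter, 232 with voom, 1 with a term for the table and no replicate block, and 0 to 338 with a library left out; magnolin against control gave 0 to 12. The difference between tables gave 0 genes for either agent, but for the fraction 1 with a pseudocount of 0.1, 74 with no filter, 1 with voom and 35 with the block, and for magnolin 29 with no filter.

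Of 353 alternatives to 31 reported gene values called in the main fit, 287 kept the call, 66 lost it and 0 turned sign. The main fit is that of a comparison before any alternative setting. Calls gained only by adding the replicate block are outside these counts. Without the block, some of those values turned sign with a library left out, as given above. A library left alone in its group was assumed to vary like the other groups. FOSB, and FOS in replicates 3 and 4, rest on few reads. Afatinib-resistant against parental HCC827 cells was not run, since the columns of the resistant group did not match the labels.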
